A study of Mus musculus with 12 samples.

Results

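The 6 libraries described here measured the response to bleomycin (bleo), a DNA-damaging drug that injures the lung when given through the airway, in Pdgfra+ cells sorted from lungs of mice labelled Pear1-/-. They are 6 of the 12 libraries of the series, and every gene in the count table was a member of the comparison, without selection. Pear1 is a cell-surface protein with EGF-like repeats, first described on platelets and also found on lung mesenchymal cells. Pdgfra (CD140a) is the receptor by which lung fibroblasts are commonly sorted. After injury such fibroblasts are known to leave their resting states, to divide and to lay down matrix: fibrillar collagens are secreted as procollagens, hydroxylated and cross-linked on the way, while contractile proteins mark the myofibroblast state. Bleo lungs also hold recruited monocyte-derived macrophages, which are known to take up matrix debris and to signal to fibroblasts.

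Vehicle-treated lungs gave 3 libraries (Pear1-/- vehicle) and bleo-treated lungs 3 (Pear1-/- bleo), and the matched wild-type (WT) libraries, 3 vehicle and 3 bleo, were compared only to ask where the response differed between the labels, although all 12 libraries shared 1 filter, scaling and estimate of spread. All mice were male. The study's general methods give a C57BL/6 background and an age of 8 to 12 weeks unless stated otherwise. The Pear1-/- allele was a whole-body knockout-first insertion of a splice-trapping lacZ and neo cassette within an intron of Pear1, so every cell of the animal carried it and no cell-specific driver was involved. The general methods give 1.5 or 2 µg of bleo per g of body weight as an aerosol into the trachea, and day 21 for lung function and pathology, without saying which dose or day these libraries came from. The number of mice per library is not given, and nothing says that the 3 libraries of a group came from separate animals, so the p-values measure only the spread between these samples, which may be technical.

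The libraries held 8711317 to 10018941 counts after vehicle and 9421466 to 10447101 after bleo. At this depth 3 counts, the limit that a count of 0 allows, correspond to about 2.97 normalized counts per vehicle library and 2.70 per bleo library on average, for counting error only. Normalized counts are the deposited values in which each library's counts were divided by its own size factor. Counts differed between replicates by 1.37 to 1.47 times the sampling variance among the bleo libraries, by 1.44 times between vehicle replicates 1 and 2, and by 4.31 and 4.82 times between these and vehicle replicate 3. Bleo libraries detected fewer genes (21621 to 21954 with at least 1 count, against 27702 to 29425 after vehicle), had a smaller share of counts on genes that are not protein coding (11.0% to 11.2% against 17.8% to 18.5%) and a smaller mitochondrial share (2.11% to 2.29% against 2.96% to 3.66%). The part of these differences in the results was not tested. In bulk samples, fewer cells of a type and less RNA per cell cannot be told apart.

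Pear1 itself (chr3:87747890-87824306, minus strand, GRCm38) was counted in every library. The libraries labelled Pear1-/- held 511.3, 500.9 and 546.8 normalized counts after vehicle and 355.2, 372.2 and 344.1 after bleo, and the WT libraries held 576.0, 544.9 and 518.6 after vehicle and 256.2, 238.6 and 266.3 after bleo. The vehicle groups overlapped, with a log2 difference, labelled Pear1-/- minus WT, of -0.08 ± 0.077 (SE, adjusted p = 0.49, edgeR quasi-likelihood test). After bleo the groups did not overlap and Pear1 was higher in the libraries labelled Pear1-/-, by 0.48 ± 0.0811 (adjusted p = 7.54e-05). The study describes the allele as one without expression, whose cassette could trap and cut short the transcript. The whole-gene count gave no sign of a lost transcript in the libraries labelled Pear1-/-. It does not tell reads before the cassette from reads after it, and neither the allele nor the label was tested. Within the libraries labelled Pear1-/-, Pear1 changed with bleo by -0.54 ± 0.0776, adjusted p = 8.32e-06 on the log2 scale, short of a 2-fold change.

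Of 17418 genes with enough counts to be tested, 4825 were called different between Pear1-/- bleo and Pear1-/- vehicle, where a call is a fold change above 2 and a Benjamini-Hochberg adjusted p under 0.05 in edgeR's quasi-likelihood test. Higher calls numbered 1458, or 8.37% of the genes tested, and lower calls 3367, or 19.3%. Without WT vehicle replicate 2, a library outside this comparison that stood apart from its group, 20405 genes were tested, 1549 were called higher and 5130 lower. A share of a gene list near 8.37% higher or 19.3% lower is that of all genes and no result about the list. The excess of lower calls lay among weakly counted genes: below a mean log2 CPM (counts per 1e6 counts of a library) of 0, 1152 of 1800 genes were called lower and 124 higher, and 1023 of the lower calls had at most 3 counts in every bleo library. Among the 5380 genes whose log2 CPM averaged 5 or more, 329 were called higher and 362 lower. Scaling the libraries on these 5380 genes alone lowered all their log2 fold changes by a median of 0.11 and gave 241 higher and 431 lower calls, and the values below, all scaled on the genes tested, can be read against that shift. The median log2 fold change over all genes tested was -0.05. Of the 4825 called genes, 4784 had no overlap between the vehicle and the bleo libraries. A call above 2-fold with 3 libraries per group favours such separation, so this count is no separate support for the calls.

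**Figure D1:**
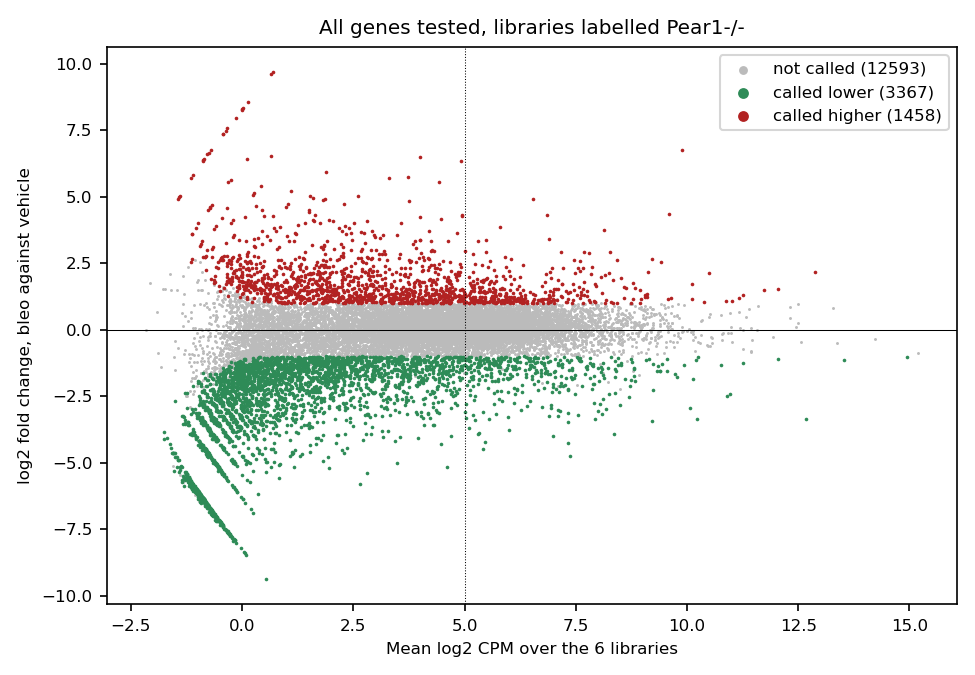
Change with bleo against level for the 17418 genes tested in the libraries labelled Pear1-/-. The x axis is the mean log2 CPM over the 6 libraries and the y axis the log2 fold change, bleo against vehicle; each point is 1 gene, red where called higher, green where called lower and grey where not called. Lower calls crowd the left of the plot, and to the right of the dotted line at 5 the 329 higher and 362 lower calls are close in number.

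The Pdgfra+ gate was first checked on its own markers. Pdgfra held 4166, 4203 and 4125 normalized counts after vehicle and 2403, 2370 and 2402 after bleo, a log2 change of -0.80 ± 0.066, adjusted p = 5.16e-09. The groups did not overlap, but the change was under 2-fold. Of 10 genes that mark sorted lung mesenchyme, 0 were called higher and 5 lower, with a median log2 fold change of -0.92. Dcn, the small leucine-rich proteoglycan decorin, stood at 41640, 42200 and 39780 after vehicle and 7690, 7710 and 7728 after bleo (-2.41 ± 0.259, adjusted p = 4.79e-05). Gsn (chr2:35256380-35307892, plus strand, GRCm38), the actin-severing protein gelsolin, was among the most abundant transcripts of the vehicle libraries at 181000, 177400 and 201200 and fell to 17950, 18670 and 18210 (-3.35 ± 0.0646, adjusted p = 8.38e-18). All bleo libraries lay far below all vehicle libraries for both genes.

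Most markers of resting adventitial fibroblasts fell. Of 13 adventitial fibroblast markers, 10 were called lower and 0 higher (median -2.13, against -0.05 over all genes and a background of 19.3% called lower). Pi16, a peptidase inhibitor that marks adventitial fibroblasts, had 4112, 3935 and 4614 normalized counts after vehicle and 446.6, 497.7 and 510.9 after bleo (-3.12 ± 0.13, adjusted p = 6.11e-12). Cd34, a sialomucin of stem and progenitor cells, had 3748, 3753 and 3636 and 862.2, 870.8 and 811.2 (-2.13 ± 0.0944, adjusted p = 4.95e-13), and Ccl11, the eosinophil attractant eotaxin, 1135, 1176 and 1236 and 182.9, 158.2 and 173.5 (-2.78 ± 0.337, adjusted p = 0.000105). Adh7 (chr3:138217760-138233382, plus strand, GRCm38), an alcohol dehydrogenase that can oxidise retinol, showed the largest fall among genes whose log2 CPM averaged 5 or more, immunoglobulin segments and predicted genes left out, from 1708, 1720 and 1603 to 89.68, 97.99 and 84.83 (-4.20 ± 0.105, adjusted p = 1.67e-16). Tnxb, the matrix protein tenascin X, fell from 1277, 1252 and 1469 to 127.9, 131.5 and 126.8 (-3.37 ± 0.105). Each of these genes was lower in 3 of 3 bleo libraries than in any vehicle library.

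Alveolar fibroblast and lipofibroblast markers split. Of 14 genes, 5 were called lower (35.7%, against 19.3% of all genes) and 1 higher (7.14%, near the 8.37% of all genes). The other 8 were not called, and the median was -0.35. Inmt, a methyltransferase of alveolar fibroblasts, fell from 25640, 25480 and 28710 to 3393, 3583 and 3360 (-2.95 ± 0.0828, adjusted p = 6.82e-16), and Itga8, the integrin chain that pairs with beta 1 and binds nephronectin, from 2280, 2194 and 1854 to 780.5, 794.3 and 795.9 (-1.41 ± 0.173, adjusted p = 2.55e-05). Npnt, nephronectin itself, held 2602, 2520 and 2694 after vehicle and 2255, 2334 and 2245 after bleo and was not called (-0.19 ± 0.27, adjusted p = 0.566). Lpl, lipoprotein lipase, was the member called higher, from 900.5, 927.7 and 905.8 to 4659, 4790 and 4729 (2.38 ± 0.0649, adjusted p = 4.78e-16). Lipoprotein lipase is also made by macrophages, whose markers rose as described further on, and their part in this change was not tested. Among 12 transcription factors of lung mesenchyme, 1 was called higher (8.33%, near the 8.37% of all genes) and 2 lower (16.7%, near the 19.3% of all genes), with a median of 0.14. Tcf21 fell from 829.5, 754.2 and 803.2 to 323.2, 270.8 and 320.3 (-1.38 ± 0.0915) and Osr1 from 918.5, 918.4 and 972.4 to 268.2, 333.5 and 278.3 (-1.67 ± 0.0885), while Tbx4 was not called (0.25 ± 0.0795). Nr2f1 was called higher from counts near the limit of detection, 5.681, 6.494 and 9.822 against 15.1, 16.33 and 17.16 (1.15 ± 0.394, adjusted p = 0.0164), and its call was lost without vehicle replicate 1 (0.97), vehicle replicate 2 (1.05), bleo replicate 2 (1.12) or bleo replicate 3 (1.09).

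Most genes of activated, matrix-making fibroblasts rose. Of 14 markers, 10 were called higher and 1 lower, with a median log2 fold change of 2.53 against a background of 8.37% called higher. Cthrc1, a secreted protein that marks the collagen-rich fibroblasts of fibrotic lung, had 27.46, 47.31 and 14.19 normalized counts after vehicle and 2491, 2476 and 2551 after bleo (6.37 ± 0.203, adjusted p = 8.06e-12). Grem1, a secreted BMP antagonist, had 15.15, 16.7 and 13.1 and 792, 794.3 and 849.3 (5.74 ± 0.141, adjusted p = 1.67e-16). Both were low after vehicle and far above that level in every bleo library. Postn, the matricellular protein periostin, rose from 707.3, 659.6 and 721.4 to 4274, 4166 and 4261 (2.61 ± 0.0686). Aspn, asporin, went the other way, from 1725, 1821 and 1287 to 711.2, 695.4 and 762.5 (-1.15 ± 0.233, adjusted p = 0.002).

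**Figure D2:**
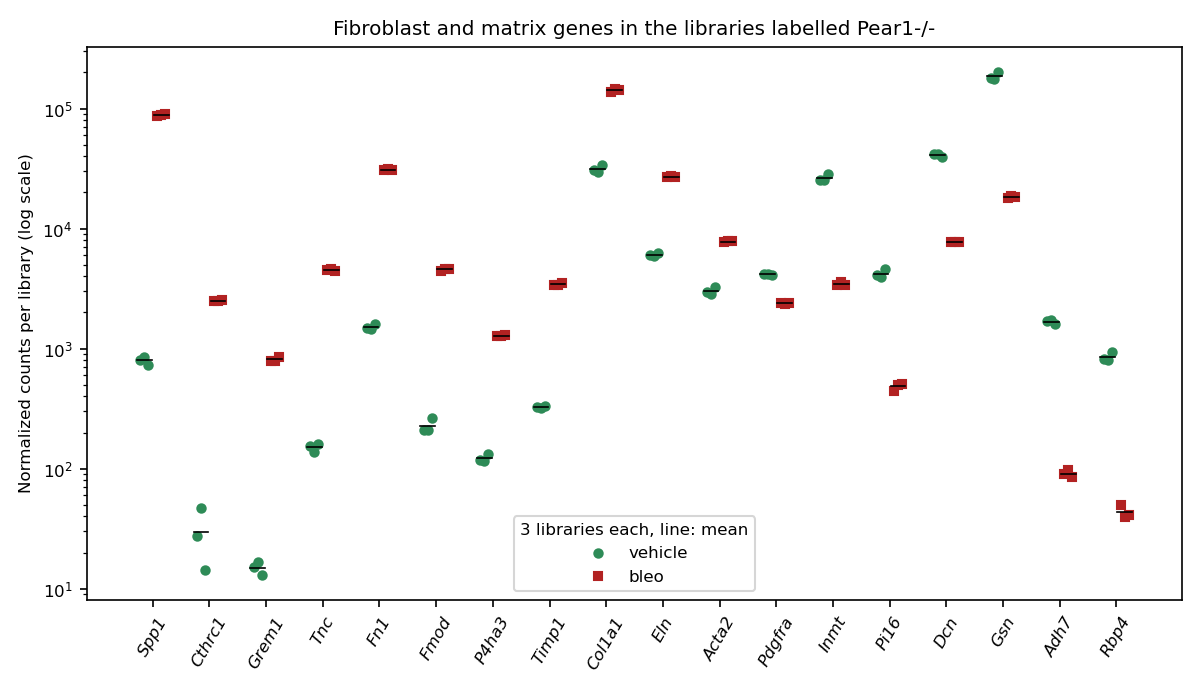
Normalized counts per library (y axis, log scale) of 18 fibroblast, matrix and retinoid genes in the libraries labelled Pear1-/-. Green circles are the 3 vehicle libraries, red squares the 3 bleo libraries and short lines the group means. The groups do not overlap for any of the genes shown, with Spp1, Cthrc1, Grem1 and Tnc furthest apart upwards and Adh7 and Rbp4 furthest apart downwards.

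The largest rises among genes at that level were led by matrix and matrix-binding proteins. Spp1 (chr5:104435118-104441050, plus strand, GRCm38), the secreted phosphoprotein osteopontin, rose from 811.5, 851.6 and 735.6 normalized counts to 86050, 88310 and 89370, a log2 change of 6.78 ± 0.0903, adjusted p = 1.62e-20 and 110 times the vehicle mean. Spp1 is made by macrophages as well as by mesenchymal cells, and the source cannot be read from sorted bulk RNA. Tnc, the wound matrix protein tenascin C, rose from 153.4, 138.2 and 159.3 to 4537, 4640 and 4457 (4.92 ± 0.273, adjusted p = 2.45e-07), and Fn1, fibronectin, from 1482, 1456 and 1604 to 30500, 31530 and 30870 (4.36 ± 0.204, adjusted p = 4.28e-08). Fmod, fibromodulin, which binds collagen fibrils, went from 211.2, 209.7 and 265.2 to 4457, 4640 and 4641 (4.33 ± 0.128). Nrep, a small protein known from regenerating nerve and myofibroblasts, went from 728.2, 708.8 and 601.3 to 9104, 8936 and 9274 (3.75 ± 0.111), and Bmper, a secreted BMP-binding regulator, from 130.7, 153.1 and 144.1 to 1113, 1082 and 1068 (2.93 ± 0.176). Clec4n, the myeloid lectin Dectin-2, and Ms4a6d, a myeloid membrane protein, were also among the 10 largest rises (3.88 ± 0.0841 and 3.33 ± 0.107), so both fibroblast and myeloid genes stood at the top.

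Most fibrillar collagens rose. Of 10 genes, 7 were called higher and 0 lower, with a median of 1.62, and their summed level went from between 91520 and 97950 normalized counts after vehicle to between 288400 and 298000 after bleo. Col1a1 (chr11:94936224-94953042, plus strand, GRCm38), the main chain of type I collagen, had 30990, 29780 and 33800 after vehicle and 138600, 144400 and 143500 after bleo (2.18 ± 0.0547, adjusted p = 1.67e-16). Col3a1, the type III chain, had 37020, 36090 and 37260 and 71310, 72870 and 72550 (0.98 ± 0.0472, adjusted p = 1.78e-12) and missed the 2-fold threshold narrowly while its groups were far from overlapping. Col11a1, a chain that nucleates fibrils and is more typical of cartilage, was nearly silent after vehicle at 18.94, 17.63 and 20.74 and reached 208.7, 234.7 and 239.2 (3.57 ± 0.234, adjusted p = 1.81e-10). Col5a3, a type V chain, rose from 278.4, 245.8 and 263 to 1222, 1208 and 1226 (2.22 ± 0.0886).

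Enzymes that modify and cross-link collagen were called in part. Of 24 genes, 6 were called higher and 1 lower (median 0.48). P4ha3, a catalytic subunit of prolyl 4-hydroxylase, rose from 118.4, 116.9 and 133.1 to 1271, 1276 and 1300 (3.39 ± 0.0847, adjusted p = 1.67e-16), and Lox, lysyl oxidase, from 1305, 1356 and 1216 to 5803, 5534 and 5861 (2.15 ± 0.0766, adjusted p = 1.89e-14). Plod2, the lysyl hydroxylase that sets pyridinoline cross-links, rose from 247.1, 261.6 and 228.1 to 467.9, 471.1 and 462.3 but stayed under 2-fold (0.93 ± 0.0844, adjusted p = 1.9e-08). Serpinh1, the collagen chaperone HSP47, held 6303, 6112 and 7393 and 7707, 7993 and 7888 (0.26 ± 0.0677, adjusted p = 0.00294), with no overlap and a small change. Loxl4 fell from 65.34, 80.71 and 96.04 to 31.08, 27.51 and 26.69 (-1.49 ± 0.202). The lysyl oxidase genes therefore included members called in opposite directions.

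Basement membrane genes did not follow the fibrillar collagens. Of 22 laminin, nidogen, perlecan and network collagen genes, 11 were called lower and 3 higher (median -0.97). Col4a2 was called higher, from 1464, 1458 and 1603 to 3845, 3945 and 3873 (1.37 ± 0.0668), and its partner Col4a1 rose in every library without reaching 2-fold, from 3361, 3316 and 3425 to 5684, 5880 and 5986 (0.80 ± 0.0584). Lamc3, a laminin gamma chain, fell from 1311, 1343 and 1485 to 131.4, 154.7 and 176.3 (-3.16 ± 0.0964), and Lamc1, the common gamma chain, held 1761, 1738 and 1787 and 1050, 1154 and 1064 (-0.69 ± 0.0894, not called). Type IV collagen and laminin chains are built into the same sheets, and here the log2 values of Col4a1 and Col4a2 lay above 0 and those of Lamc1 and Lamc3 below 0.

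Matrix glycoprotein and elastic fibre genes had 8 of 23 called higher (34.8%, against 8.37% of all genes) and 4 lower (17.4%, against 19.3%), with a median of 0.42. Eln, tropoelastin, rose from 5993, 5882 and 6305 to 26680, 27180 and 26800 (2.15 ± 0.0759, adjusted p = 1.64e-14), and Efemp1, fibulin 3, fell from 4978, 5061 and 5147 to 568.3, 537.2 and 533.8 (-3.21 ± 0.0706, adjusted p = 3.94e-17). Among 22 matrix proteases and their inhibitors, 6 were called higher (27.3%) and 4 lower (18.2%, near that of all genes). Timp1 and Timp3, both inhibitors of metalloproteinases, moved apart: Timp1 rose from 327.6, 319.1 and 333.9 to 3411, 3421 and 3498 (3.40 ± 0.0875) and Timp3 fell from 11630, 11760 and 11620 to 2439, 2427 and 2419 (-2.26 ± 0.0628). Mmp14, the membrane collagenase, rose from 2439, 2549 and 2828 to 7334, 7620 and 7347 (1.52 ± 0.0683), and Mmp12, a macrophage elastase, from 879.7, 886.9 and 645 to 3709, 3637 and 3691 (2.20 ± 0.144). Itga5, the fibronectin receptor chain, was the only 1 of 18 integrin chains called higher, from 771.7, 783 and 930.9 to 1928, 2027 and 1985 (1.26 ± 0.084), while Itga11, a collagen receptor chain, fell from 218.7, 239.3 and 268.5 to 74.59, 73.06 and 91.51 (-1.60 ± 0.153).

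Of 16 contractile genes, 6 were called higher (37.5%, against 8.37% of all genes) and 3 lower (18.8%, against 19.3%), with a median of 0.61. Acta2 (chr19:34241090-34255590, minus strand, GRCm38), smooth muscle actin, had 2966, 2870 and 3287 after vehicle and 7754, 7822 and 7846 after bleo (1.36 ± 0.065, adjusted p = 1.5e-12). Des, the muscle intermediate filament desmin, rose from 696.9, 707.8 and 886.2 to 3293, 3424 and 3288 (2.13 ± 0.0888). Tagln, transgelin, held 674.2, 677.2 and 758.5 and 1157, 1166 and 1284, separate but under 2-fold (0.78 ± 0.0743). Myh11, the myosin heavy chain of differentiated smooth muscle, fell from 625, 649.4 and 618.8 to 80.8, 101.4 and 100.1 (-2.74 ± 0.113, adjusted p = 1.53e-13). Of 10 pericyte markers, 5 were called lower (50%, against 19.3% of all genes) and 1 higher (10%, near the 8.37% of all genes). Abcc9, a potassium channel subunit of mural cells, fell from 1245, 1192 and 1142 to 226.4, 193.4 and 172.5 (-2.59 ± 0.103), and Cox4i2 from 35.04, 42.67 and 57.84 to 15.1, 7.736 and 9.532 (-2.04 ± 0.315). Cspg4, the NG2 proteoglycan, rose from 78.59, 80.71 and 72.03 to 181.1, 223.5 and 211.6 (1.41 ± 0.16). The summed pericyte level was 2738 to 2844 after vehicle and 1262 to 1357 after bleo, and its part in the contractile changes was not tested.

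Among 22 TGF-beta ligands, receptors and targets, 4 were called higher and 1 lower, with a median of 0.05, which is near that of all genes. Inhba, the activin A chain, rose from 58.71, 63.08 and 82.94 to 645.5, 719.5 and 705.4 (3.35 ± 0.131, adjusted p = 7.65e-14). Tgfb1, the ligand most studied in fibrosis, held 264.2, 243.1 and 294.7 and 336.5, 326.6 and 306.9 (0.28 ± 0.0961, adjusted p = 0.0158), and Ctgf, a matricellular target, 854.1, 903.6 and 889.4 and 894.2, 853.6 and 812.1, with overlapping groups (-0.04 ± 0.0724, adjusted p = 0.615). Tgfbr3, the coreceptor betaglycan, fell from 1753, 1735 and 1680 to 531.9, 502.9 and 508 (-1.74 ± 0.0685). Of 25 growth factors and Hedgehog targets, 8 were called lower (32%, against 19.3% of all genes) and 2 higher (8%, near the 8.37% of all genes). The latter were Grem1 and Igf1. Igf1, insulin-like growth factor 1, rose from 1187, 1250 and 1013 to 3181, 3099 and 3231 (1.47 ± 0.0771), whereas Bmp4 fell from 680.8, 611.3 and 730.1 to 131.4, 154.7 and 137.3 (-2.25 ± 0.0965). Gli1 and Hhip, which are induced by Hedgehog signalling, both fell, Gli1 from 197, 203.2 and 218.3 to 77.25, 79.94 and 83.88 (-1.35 ± 0.135) and Hhip from 2930, 2961 and 2793 to 390.7, 428.1 and 403.2 (-2.82 ± 0.1). Fgf10, a growth factor for alveolar epithelium, held 685.6, 731 and 622.1 and 313.4, 366.2 and 341.2, at the threshold and not called with all 12 libraries (-0.99 ± 0.0983), though called without WT vehicle replicate 2 (-1.01), vehicle replicate 1 (-1.01), vehicle replicate 3 (-1.07), bleo replicate 2 (-1.07) or bleo replicate 3 (-1.01), and Hgf, hepatocyte growth factor, 166.7, 186.5 and 169.2 and 308.1, 304.3 and 329.8 (0.85 ± 0.144, not called).

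Genes of the retinoic acid pathway, which lung fibroblasts use in alveolar upkeep, had 6 of 16 called lower (37.5%, against 19.3% of all genes) and 2 higher (12.5%, against 8.37%), with a median of -0.48. Rbp4, the retinol carrier, fell from 818.1, 800.6 and 940.7 to 49.72, 39.54 and 40.99 (-4.29 ± 0.11, adjusted p = 2e-16), and Aldh1a1, a retinal dehydrogenase, from 4216, 3934 and 3969 to 1449, 1413 and 1470 (-1.48 ± 0.0634, adjusted p = 2.81e-13). Crabp1, a retinoic acid binding protein, was called higher from very few counts, 3.788, 2.783 and 2.183 against 18.65, 14.61 and 20.97 (2.57 ± 0.465).

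Cell cycle genes had the largest share of higher calls of the lists described here. Of 39 genes, 30 were called higher and 0 lower, with a median of 1.99, where 8.37% of all genes were called higher. Many genes of the late cell cycle are known to carry CCAAT boxes, bound by NF-Y, and a cell cycle homology region (CHR), bound by the DREAM and MuvB complexes, near the transcription start. The promoters of 4 members named here are shown for that reason, from RefSeq on GRCm38.p6, 5′ to 3′ on the gene's strand, from 250 bases before to 50 bases after the start. Capitals mark CCAAT (or ATTGG on the other strand) and the CHR letters TTTGAA or TTCGAA (or TTCAAA on the other strand).
Ccnb2, chr9:70421505-70421804, minus strand: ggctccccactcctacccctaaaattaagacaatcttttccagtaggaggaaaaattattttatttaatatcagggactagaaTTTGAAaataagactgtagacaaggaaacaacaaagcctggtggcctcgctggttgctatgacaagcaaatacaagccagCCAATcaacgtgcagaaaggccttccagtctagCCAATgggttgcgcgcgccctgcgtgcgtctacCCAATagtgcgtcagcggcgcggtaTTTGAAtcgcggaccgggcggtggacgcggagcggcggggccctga
Top2a, chr11:99024140-99024439, minus strand: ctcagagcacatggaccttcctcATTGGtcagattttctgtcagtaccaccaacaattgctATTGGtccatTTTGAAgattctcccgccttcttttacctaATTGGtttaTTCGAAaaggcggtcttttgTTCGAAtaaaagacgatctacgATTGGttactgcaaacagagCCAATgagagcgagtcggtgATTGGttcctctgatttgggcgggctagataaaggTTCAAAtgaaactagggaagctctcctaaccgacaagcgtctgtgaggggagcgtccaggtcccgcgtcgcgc
Mki67, chr7:135716330-135716629, minus strand: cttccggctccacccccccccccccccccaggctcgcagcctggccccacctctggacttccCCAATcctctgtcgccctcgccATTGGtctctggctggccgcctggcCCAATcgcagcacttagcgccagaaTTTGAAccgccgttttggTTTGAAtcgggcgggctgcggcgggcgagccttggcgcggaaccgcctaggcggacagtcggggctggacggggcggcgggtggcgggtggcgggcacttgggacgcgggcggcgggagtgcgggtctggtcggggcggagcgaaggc
Mcm2, chr6:88898731-88899030, minus strand: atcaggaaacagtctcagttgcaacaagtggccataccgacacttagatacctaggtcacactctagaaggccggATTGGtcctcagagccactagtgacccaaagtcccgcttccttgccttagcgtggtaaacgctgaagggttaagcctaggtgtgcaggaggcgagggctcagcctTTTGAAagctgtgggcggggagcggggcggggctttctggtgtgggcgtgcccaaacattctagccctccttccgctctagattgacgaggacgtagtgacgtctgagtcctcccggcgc
The Ccnb2 window held 3 CCAAT and 2 CHR matches, that of Top2a 6 and 4, that of Mki67 3 and 2, and that of Mcm2 1 and 1. Of the 35 promoters found for 33 of the 39 list genes, 18 (51.4%) held both motifs, against 7.52% of all 32851 promoters in the table. For CCAAT alone the shares were 77.1% and 37.4%, and for CHR alone 51.4% and 19.2%. These are matches of letters, not sites, and motif presence was not tested against the change with bleo.

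Ccnb2, cyclin B2, which drives entry into mitosis, rose from 42.61, 53.81 and 36.01 to 556.7, 597.4 and 580.5 (3.70 ± 0.127, adjusted p = 1.26e-14). Top2a, topoisomerase II alpha, rose from 118.4, 122.5 and 119 to 507, 548.4 and 567.1 (2.18 ± 0.0839, adjusted p = 6.02e-14), and Mki67, the Ki-67 protein of cycling cells, from 71.97, 86.27 and 53.48 to 366.7, 379.1 and 365.1 (2.38 ± 0.119, adjusted p = 2.79e-12). Mcm2, a subunit of the replicative helicase, held 235.8, 235.6 and 240.1 and 393.4, 416.9 and 437.5, separate but under 2-fold (0.81 ± 0.176, adjusted p = 0.00122). For these genes the bleo libraries lay above all vehicle libraries. The list's rise cannot be assigned to fibroblasts or to other cells in the sort.

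Targets of p53, the factor that bleo-type DNA damage activates, were called both ways: 5 of 21 tested were called higher (23.8%, against 8.37% of all genes) and 2 lower (9.52%, against 19.3%), with a median of 0.36. Cdkn1a, the cell cycle inhibitor p21, went from 1789, 1731 and 1860 to 3594, 3670 and 3608 and lay at the threshold (1.02 ± 0.0677, adjusted p = 2.07e-10). Its call was lost without vehicle replicate 1 (0.996), vehicle replicate 2 (0.97) or bleo replicate 2 (0.99). Ddit4, an inhibitor of mTORC1, had the largest rise of the list, from 213.1, 216.2 and 248.8 to 746.8, 825.2 and 782.6 (1.80 ± 0.181), and Perp, a desmosomal protein of epithelia, the largest fall, from 89.01, 91.84 and 100.4 to 18.65, 24.07 and 23.83 (-2.07 ± 0.209). Mdm2, the p53 ubiquitin ligase, held 660, 705 and 597 and 815.1, 831.2 and 848.3 (0.35 ± 0.0822), and Gdf15, a stress cytokine, 294.5, 286.7 and 385.2 and 499, 542.4 and 520.4 (0.70 ± 0.0948), neither called.

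**Figure D3:**
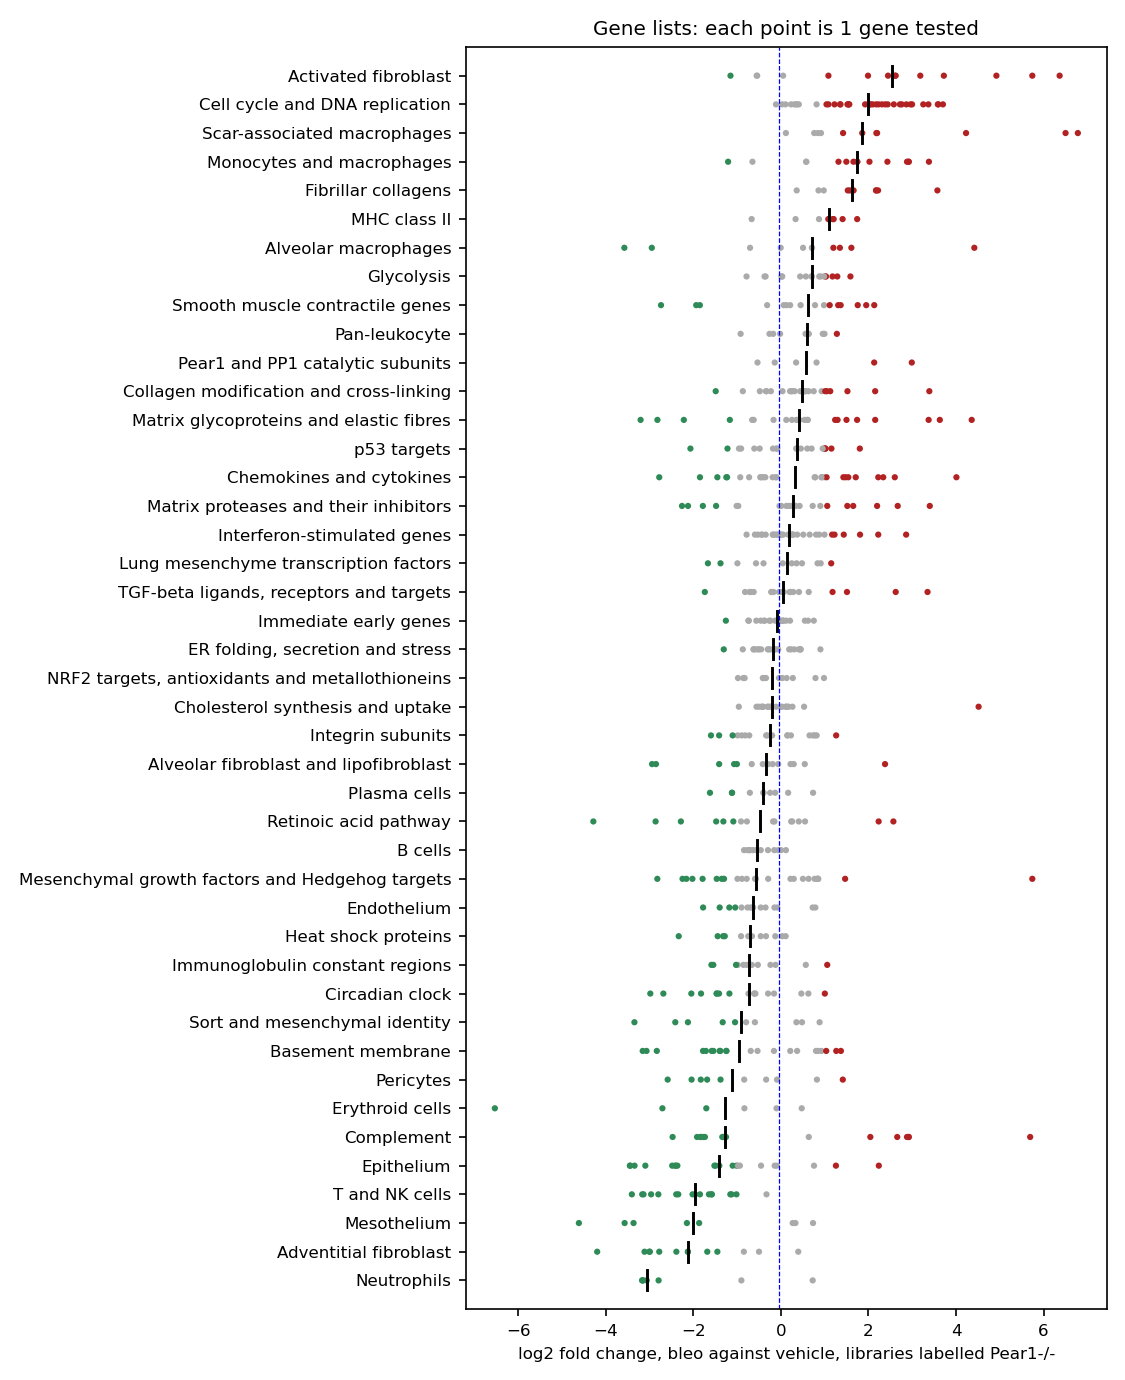
Log2 fold change, bleo against vehicle, of every gene tested in each gene list in the libraries labelled Pear1-/-. Each point is 1 gene, red where called higher, green where called lower and grey where not called; black bars are list medians and the dashed line is the median of all genes. Activated fibroblast (2.53) and cell cycle (1.99) lists have the highest medians, and neutrophil (-3.07) and adventitial fibroblast (-2.13) lists the lowest.

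Although the cells were sorted on Pdgfra, the libraries held RNA of many other lineages, and several of these lists changed with bleo. Monocyte and macrophage markers were called higher in 11 of 15 genes and lower in 1 (median 1.74), and their summed level rose from between 23460 and 25150 normalized counts to between 68090 and 70450. Csf1r, the receptor for the macrophage growth factor, rose from 1170, 1126 and 1265 to 3983, 3976 and 3934 (1.74 ± 0.0642, adjusted p = 3.17e-14), and Adgre1, the F4/80 antigen, from 353.2, 323.8 and 358 to 987.4, 967 and 952.2 (1.49 ± 0.072, adjusted p = 1.76e-12). Fcgr1, the high-affinity IgG receptor, rose from 41.66, 48.24 and 38.2 to 449.3, 442.7 and 448 (3.38 ± 0.106). Ly6c2, a marker of classical monocytes, fell from 987.6, 993.5 and 1095 to 443.1, 470.2 and 413.7 (-1.21 ± 0.0881). None of the macrophage markers was at 0 in all 6 libraries.

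Ptprc, the pan-leukocyte antigen CD45, did not rise with the macrophage genes: it held 4016, 3918 and 3520 after vehicle and 3448, 3241 and 3405 after bleo (-0.18 ± 0.0825, adjusted p = 0.0677). Of 10 pan-leukocyte genes, 1 was called higher, Fcer1g, the shared Fc receptor gamma chain, from 1095, 1211 and 1389 to 3045, 2917 and 2967 (1.28 ± 0.113). Genes of the scar-associated macrophage were called higher in 7 of 11, among them Trem2, a lipid-sensing receptor, from 32.2, 29.69 and 33.83 to 567.4, 599.1 and 626.2 (4.23 ± 0.226, adjusted p = 4.51e-09). Gpnmb, a lysosomal glycoprotein, stayed under 2-fold, 828.6, 895.2 and 1059 against 1561, 1617 and 1517 (0.76 ± 0.114). Of 11 alveolar macrophage genes, 4 were called higher (36.4%, against 8.37% of all genes) and 2 lower (18.2%, near the 19.3% of all genes). Chil3, the chitinase-like Ym1, rose from 2247, 2227 and 2284 to 5178, 5201 and 5083 (1.20 ± 0.241) and Siglec1, sialoadhesin, from 6.628, 4.638 and 2.183 to 88.79, 110.9 and 101 (4.42 ± 0.485), whereas Ear1, an eosinophil-associated ribonuclease with near-identical copies, fell from 54.92, 45.46 and 54.57 to 2.664, 5.158 and 4.766 (-3.58 ± 0.303). Siglecf (0.71 ± 0.21) and Marco (0.51 ± 0.303), which define resident alveolar macrophages, were not called, and Marco overlapped between the groups.

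MHC class II genes, which present antigen and are expressed by B cells, macrophages and dendritic cells, were called higher in 6 of 9 (median 1.10). H2-Aa rose from 12400, 12260 and 13470 to 26870, 26910 and 26730 (1.08 ± 0.0539, adjusted p = 2.82e-12), and H2-DMb1, a peptide-loading chain, from 707.3, 690.2 and 719.2 to 2413, 2353 and 2292 (1.74 ± 0.0846). Ciita, the class II transactivator, rose from 372.1, 347 and 352.5 to 832, 790.8 and 811.2 (1.19 ± 0.069). Cd74, the invariant chain, rose in every library without reaching 2-fold, 31690, 31840 and 36730 against 61080, 61540 and 59990 (0.87 ± 0.0586). Macrophage markers rose in the same libraries, and their part in the class II values was not tested.

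Of 28 chemokines and cytokines tested, 9 were called higher (32.1%, against 8.37% of all genes) and 5 lower (17.9%, against 19.3%). The monocyte attractants Ccl2 and Ccl12 rose, Ccl2 from 704.5, 689.3 and 675.5 to 1881, 1792 and 1875 (1.43 ± 0.067) and Ccl12 from 31.25, 31.54 and 14.19 to 444, 444.4 and 374.6 (4.01 ± 0.179), while Ccl7 stayed just under 2-fold (0.93 ± 0.0811). Cxcl13, a B cell attractant, held 131.6, 141 and 84.03 and 238.9, 237.2 and 236.4 and lay at the threshold without a call (0.99 ± 0.152), but was called without vehicle replicate 1 (1.05) or 2 (1.11). Il6 held 2400, 2551 and 2095 and 1235, 1150 and 1303 (-0.93 ± 0.117, not called, and called without vehicle replicate 3 at -1.02). Cxcl12 (-0.11 ± 0.186) and Cxcl14 (-0.19 ± 0.115), both made by mesenchymal cells, were not called. Complement genes were split, 6 of 16 higher and 9 lower (median -1.29), and their summed level fell from between 108300 and 115200 to between 50430 and 51510. C3, the central component, fell from 38250, 38210 and 43270 to 7033, 7309 and 7128 (-2.48 ± 0.249, adjusted p = 3.06e-05). Cfd, complement factor D, had 0 counts in the 3 vehicle libraries and 7.992, 5.158 and 5.719 normalized counts after bleo, at least 2.12-fold higher against a floor of 3 counts in each vehicle library. Of 32 interferon-stimulated genes, 6 were called higher and 0 lower. Oas2 rose from 27.46, 25.05 and 37.11 to 190.9, 219.2 and 235.4 (2.86 ± 0.211), Isg15 lay at the threshold (0.99 ± 0.115, not called, but called without vehicle replicate 3 at 1.11 or bleo replicate 2 at 1.01), and neither Irf7 (0.66 ± 0.135) nor Ifit1 (-0.42 ± 0.157) was called.

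Most T and NK cell genes fell: 16 of 17 were called lower (median -1.96), and their sum went from between 6322 and 6646 normalized counts to between 1701 and 1761. Cd3e, a T cell receptor chain, fell from 242.4, 266.2 and 244.5 to 94.12, 81.66 and 75.3 (-1.58 ± 0.14, adjusted p = 1.33e-08). Gzma, granzyme A, fell from 1043, 1118 and 1106 to 107.4, 93.69 and 105.8 (-3.41 ± 0.188, adjusted p = 6.2e-09), and Nkg7, a cytotoxic granule protein, from 518, 562.2 and 600.2 to 59.49, 66.19 and 63.86 (-3.14 ± 0.206, adjusted p = 1.67e-08). Most neutrophil genes fell too, 5 of 7 called lower (median -3.07), with S100a8, a calprotectin subunit, going from 6417, 6978 and 8458 to 845.3, 775.3 and 841.7 (-3.15 ± 0.446), Ly6g from 53.03, 43.6 and 69.85 to 9.767, 2.579 and 5.719 (-3.17 ± 0.479) and Ngp, neutrophilic granule protein, from 1341, 1340 and 1371 to 99.45, 86.82 and 88.65 (-3.87 ± 0.282). No B cell gene of 13 was called in either direction, although 7 passed adjusted p under 0.05 alone. Cd79a held 2830, 2791 and 3329 and 2051, 2037 and 2006 (-0.55 ± 0.225), and Ms4a1, CD20, 892.9, 946.2 and 804.3 and 880.8, 801.1 and 844.5 (-0.06 ± 0.162), with overlapping groups.

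Plasma cell RNA was abundant before and after bleo. Igha, the IgA heavy chain constant region, held 447100, 443500 and 465000 normalized counts after vehicle and 243000, 251500 and 251400 after bleo (-0.86 ± 0.184, adjusted p = 0.00329), under 2-fold, and Jchain, which joins IgA dimers, fell from 160900, 168800 and 138000 to 72090, 69990 and 72520 (-1.12 ± 0.201, adjusted p = 0.00119). Ighm, the IgM constant region, rose from 8208, 7822 and 8711 to 16950, 17310 and 17100 (1.06 ± 0.194, adjusted p = 0.00118), a call lost without vehicle replicate 2 (0.999). Ighg2c fell from 4053, 4030 and 4397 to 1399, 1405 and 1333 (-1.59 ± 0.359), and Ighg1 was not called (0.57 ± 0.678). Immunoglobulin V, D and J segments were called lower in 59 of 196 tested (30.1%, against 19.3% of all genes) and higher in 15 (7.65%, near the 8.37% of all genes), with a median of -0.77. They took 3.36% to 4.03% of counts after vehicle and 1.75% to 1.83% after bleo. Mzb1 (-0.71 ± 0.217, not called) and Tnfrsf17, the receptor BCMA (172.3, 175.3 and 218.3 and 55.94, 57.59 and 69.58, -1.62 ± 0.227), are plasma cell genes outside the immunoglobulin loci, of which 3 of 10 were called lower. Counts of immunoglobulin genes can be divided among near-identical copies and are uncertain to that extent.

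Most epithelial genes fell. Of 21 genes, 13 were called lower (61.9%, against 19.3% of all genes) and 2 higher (9.52%, near the 8.37% of all genes), with a median of -1.41. The sum went from between 60700 and 70330 to between 8824 and 8969 normalized counts. Sftpc, surfactant protein C of alveolar type II cells, fell from 16520, 16830 and 19430 to 1587, 1582 and 1661 (-3.45 ± 0.0858, adjusted p = 1.67e-16), Sftpa1 from 4708, 4672 and 4777 to 397.8, 428.9 and 464.2 (-3.45 ± 0.0871) and Scgb1a1, the club cell secretoglobin, from 31520, 33530 and 36810 to 3366, 3320 and 3307 (-3.35 ± 0.176). Cbr2 and Cyp2f2, enzymes of club cells, were among the largest falls (-3.99 ± 0.16 and -3.69 ± 0.252). Epcam, the pan-epithelial adhesion molecule, held 197.9, 231 and 217.2 and 148.3, 162.5 and 159.2 (-0.45 ± 0.113, not called), and Ager, of alveolar type I cells, lay just past the threshold (-1.10 ± 0.0985). The log2 values of the 3 secretory genes lay below that of Epcam. Bpifa1, an airway secretory protein, was called higher from few counts, 3.788, 5.566 and 7.639 against 33.74, 22.35 and 23.83 (2.24 ± 0.574).

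Endothelial genes were called lower in 4 of 15 (26.7%, against 19.3% of all genes) and higher in 0. Kdr, the VEGF receptor 2, fell from 286.9, 340.5 and 338.3 to 96.79, 93.69 and 89.6 (-1.78 ± 0.109), and Cldn5, a tight junction protein, from 1052, 1087 and 1255 to 509.7, 540.7 and 590 (-1.04 ± 0.117), a call lost without vehicle replicate 3 (-0.98). Pecam1 (-0.76 ± 0.0768) and Cdh5 (-0.90 ± 0.122) were not called, and Cdh5 passed without vehicle replicate 1 (-1.01). Mesothelial genes were called lower in 5 of 8: Upk3b went from 119.3, 92.77 and 127.7 to 7.104, 10.32 and 15.25 (-3.37 ± 0.227) and Muc16 from 86.17, 68.65 and 75.3 to 2.664, 1.719 and 4.766 (-4.62 ± 0.432), while Msln, mesothelin, was not called (0.27 ± 0.201). Erythroid genes were few in counts. Slc4a1, the band 3 anion exchanger, held 13.26, 12.06 and 8.731 after vehicle and had 0 counts in every bleo library, at least 4.20-fold lower against a floor of 3 counts in each bleo library. Alas2 fell from 18.94, 19.48 and 27.28 to 7.992, 6.877 and 4.766 (-1.71 ± 0.47), and Hba-a1, an alpha globin with a near-identical copy, was not called (0.47 ± 0.191).

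**Figure D4:**
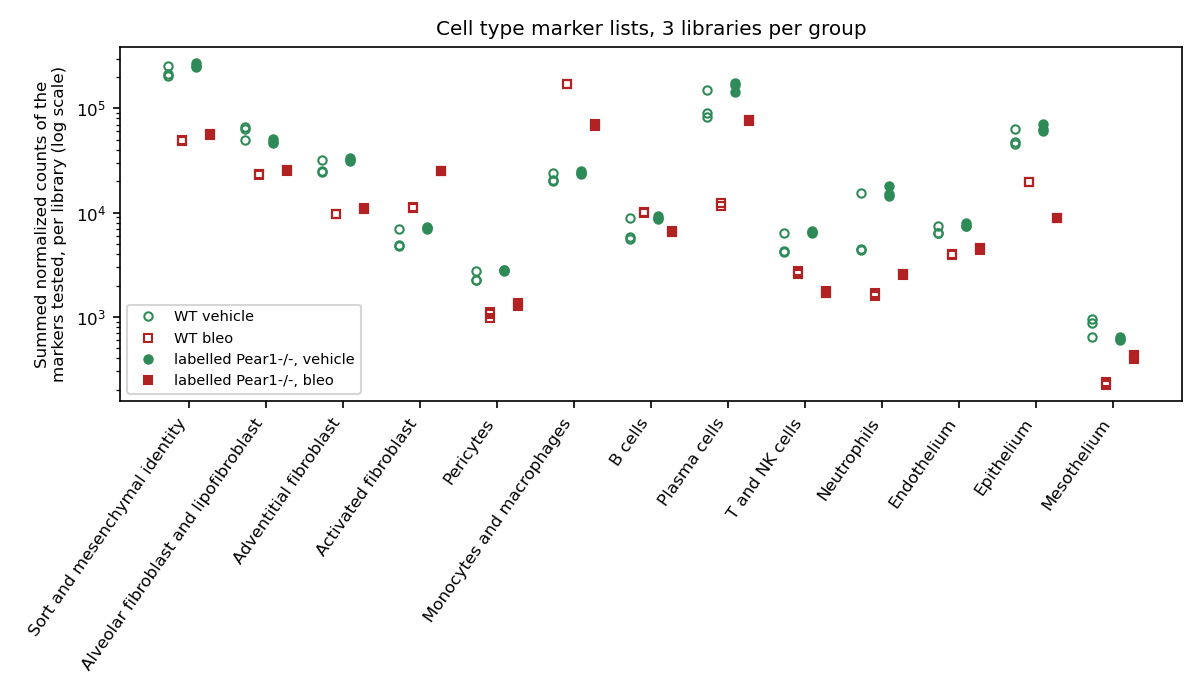
Summed normalized counts (y axis, log scale) of the tested markers of 13 cell type lists, 1 point per library. Open symbols are WT and filled symbols libraries labelled Pear1-/-; circles are vehicle and squares bleo. In the libraries labelled Pear1-/-, activated fibroblast and macrophage sums are higher in bleo and epithelial, neutrophil and T and NK sums lower, and 1 WT vehicle library lies beside the vehicle libraries labelled Pear1-/- in most lists.

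Glycolysis genes had 5 of 18 called higher and 0 lower (median 0.70): Eno1, enolase 1, rose from 2020, 2030 and 2095 to 5955, 6296 and 6164 (1.59 ± 0.0654) and Ldha, lactate dehydrogenase A, from 3043, 2962 and 3283 to 7397, 7765 and 7449 (1.29 ± 0.0937). Hk2, hexokinase 2, lay at the threshold (1.01 ± 0.102), and its call was lost without vehicle replicate 1 (0.97), vehicle replicate 2 (0.91), bleo replicate 1 (0.98), bleo replicate 3 (0.9996) or WT vehicle replicate 2 (0.99). Pkm (0.99 ± 0.0861) and Slc2a1 (0.70 ± 0.124) were not called, Pkm being called without vehicle replicate 3 (1.05). Nuclear respiratory chain subunits had a median of 0.55 with 3 higher and 3 lower calls among 74, and mitochondrially encoded genes a median of -0.82 with 6 lower and 0 higher calls among 16. Cytosolic ribosomal protein genes gave 0 calls in either direction among 76, although 36 passed adjusted p under 0.05 alone.

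Of 22 endoplasmic reticulum genes, Herpud1, a degradation factor, was the only 1 called, from 4761, 4937 and 5048 to 1955, 1968 and 2023 (-1.31 ± 0.122). Hspa5, the chaperone BiP (-0.51 ± 0.083), Creb3l1, a collagen secretion factor (0.40 ± 0.102), and Ddit3, CHOP (-0.24 ± 0.109), were not. Heat shock genes were called lower in 4 of 12, with Hspa1b going from 2182, 2441 and 2904 to 481.3, 471.1 and 534.7 (-2.34 ± 0.242) and its near-identical neighbour Hspa1a from 12960, 12670 and 15880 to 5486, 5301 and 5775 (-1.32 ± 0.0759). Immediate early genes, which respond to tissue dissociation, included 1 call of 20: Egr1 fell from 33190, 33680 and 35280 to 14330, 14310 and 13930 (-1.26 ± 0.0625), while Fos held 47100, 46450 and 48910 and 51010, 52130 and 51250 (0.12 ± 0.0527). NRF2 and metallothionein genes gave 0 calls in either direction among 12, with 8 past adjusted p under 0.05 alone, including Hmox1 (0.27 ± 0.0944) and Mt1 (-0.83 ± 0.28). Nqo1 overlapped between the groups (-0.04 ± 0.174).

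Circadian clock genes had 8 of 17 called lower and 1 higher (median -0.74). Dbp, an output of the clock, fell from 217.8, 224.5 and 254.3 to 27.53, 25.79 and 34.31 (-2.99 ± 0.145, adjusted p = 2.02e-12), and Nr1d1, the repressor REV-ERB alpha, from 1938, 1890 and 2195 to 328.5, 294 and 309.8 (-2.69 ± 0.0823, adjusted p = 2.4e-15). Arntl, BMAL1, was not called (-0.29 ± 0.109, adjusted p = 0.0251). Nfil3, a repressor of Dbp targets, was called at the threshold (1.003 ± 0.0895), and the call was lost without vehicle replicate 1 (0.97), vehicle replicate 3 (0.97), bleo replicate 1 (0.998), bleo replicate 2 (0.96) or WT vehicle replicate 2 (0.98). The hour of harvest of each group is not stated. Among Pear1, its relatives and the PP1 catalytic subunits, 2 of 6 were called higher, and Megf11, an EGF-repeat relative of Pear1, rose from 32.2, 20.41 and 21.83 to 177.6, 233.8 and 182.1 (2.99 ± 0.275).

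Whether the response differed from that of WT cells was asked with the interaction term of the same model, the change labelled Pear1-/- minus the change in WT. WT vehicle replicate 2 stood apart from its group: its counts differed from those of the other WT vehicle libraries by 21.2 and 21.8 times the sampling variance and from those of the vehicle libraries labelled Pear1-/- by 1.73 to 2.67 times. The library labelled WT vehicle replicate 2 was thus closer to the other label's vehicle libraries than to its own group. Vehicle replicate 3 labelled Pear1-/- was further from its own group (4.31 and 4.82 times). WT vehicle replicate 2 had 29845 genes with at least 1 count, against 35472 and 35884 in WT vehicle replicates 1 and 3. Its share of counts not protein coding was 17.75%, against 13.76% and 13.78%. Its label is in doubt, and a wrong label and a difference in processing cannot be told apart here. The values with all 12 libraries take the label as given, and interaction results are given with and without this library. Without it, the WT vehicle group rests on replicates 1 and 3 alone. With all 12 libraries, 1486 genes (8.53%) were called above 0 and 1215 (6.98%) below 0. Without WT vehicle replicate 2, 4461 of 20405 genes tested were called, 2460 above 0 and 2001 below, and they included 2593 of the 2701. List counts given without that library are to be read against these larger numbers. Of the 1458 genes called higher with bleo in the libraries labelled Pear1-/-, 481 had an interaction called above 0 and 105 below (534 and 137 without WT vehicle replicate 2), and of the 3367 called lower, 437 had one called below 0 and 167 above (672 and 259 without it). The change labelled Pear1-/- is part of the interaction, so genes picked for a large change lean to the same sign by construction. These splits therefore do not show which response was the stronger. In WT, 1824 genes were called higher with bleo and 4062 lower.

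**Figure D5:**
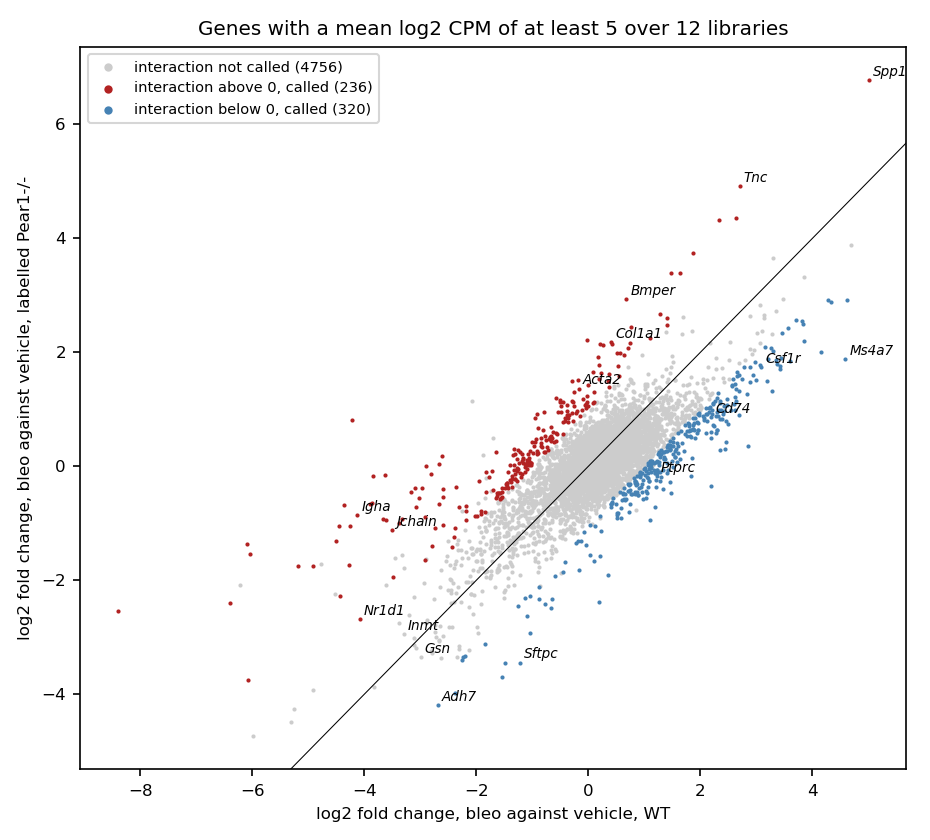
Log2 fold change with bleo in the libraries labelled Pear1-/- (y axis) against that in WT (x axis) for genes whose log2 CPM averaged 5 or more over the 12 libraries, with the line of equal change. Red points have an interaction called above 0 (236 genes with all 12 libraries, 221 without WT vehicle replicate 2), blue points below 0 (320 and 557) and grey points were not called. Matrix genes such as Tnc and Col1a1 and the plasma cell genes Igha and Jchain lie among the red points, and macrophage genes such as Csf1r and Ms4a7 and the surfactant gene Sftpc among the blue.

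Of 10 fibrillar collagens, 8 were called above 0 and 0 below (9 above without WT vehicle replicate 2), and in WT cells 0 were called higher and 0 lower with bleo. Col1a1 changed by 2.18 in the libraries labelled Pear1-/- and 0.40 in WT, an interaction of 1.77 ± 0.0747, adjusted p = 1.04e-11, and 1.71 without WT vehicle replicate 2, and Col11a1 by 3.57 and -0.01 (3.59 ± 0.358, adjusted p = 3.16e-07, and 3.85 without WT vehicle replicate 2). Col5a3 had an interaction of 2.24 ± 0.127, adjusted p = 3.14e-10, and 2.25 without WT vehicle replicate 2, Tnc of 2.22 ± 0.347, adjusted p = 0.000957, and 2.44 without WT vehicle replicate 2, Bmper of 2.26 ± 0.246, adjusted p = 1.19e-05, and 2.43 without WT vehicle replicate 2 and Lox of 1.95 ± 0.106, adjusted p = 1.98e-10, and 1.93 without WT vehicle replicate 2. In the contractile list 11 of 16 were called above 0 and 0 below, the same numbers as without that library. Acta2 changed by 1.36 and -0.17 (1.53 ± 0.0911, adjusted p = 5.23e-10, and 1.42 without WT vehicle replicate 2). Activated fibroblast genes were called above 0 in 8 of 14 and collagen-modifying genes in 9 of 24, with the same numbers without WT vehicle replicate 2. None of these 4 lists had a member called below 0, with or without that library. Other matrix lists did. Basement membrane genes had 3 above 0 and 2 below, the same without it. Matrix glycoprotein and elastic fibre genes had 7 above and 0 below (7 and 2 without it), and matrix proteases and their inhibitors 4 and 3 (3 and 3).

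Monocyte and macrophage genes were called below 0 in 10 of 15 (11 without WT vehicle replicate 2), pan-leukocyte genes in 9 of 10 (10 without it) and MHC class II genes in 8 of 9 (9 without it), and none of these 3 lists had a member above 0. B cell genes were called below 0 in 7 of 13 (13 without WT vehicle replicate 2), T and NK cell genes in 7 of 17 (12) and neutrophil genes in 0 of 7 (4), with none above 0. Alveolar macrophage genes had 1 above 0 and 6 below, the same numbers without that library. Scar-associated macrophage genes had 2 above 0 and 2 below (2 and 3 without it), and plasma cell genes 2 above and 0 below (1 and 0). Csf1r rose by 1.74 in the libraries labelled Pear1-/- and 3.08 in WT (-1.34 ± 0.0887, adjusted p = 1.88e-09, and -1.41 without WT vehicle replicate 2), and Ptprc changed by -0.18 and 1.22 (-1.395 ± 0.117, adjusted p = 3.8e-08, and -1.60 without WT vehicle replicate 2). Ms4a7, a macrophage membrane protein, had the largest negative interaction among genes whose log2 CPM averaged 5 or more (-2.71 ± 0.134, adjusted p = 8.18e-11, and -2.87 without WT vehicle replicate 2). Cd74 changed by 0.87 and 2.20 (-1.33 ± 0.0826, adjusted p = 1e-09, and -1.44 without WT vehicle replicate 2). After bleo the summed macrophage markers stood at 170900 to 171600 normalized counts in WT and 68090 to 70450 in the libraries labelled Pear1-/-, and the epithelial sum at 19470 to 19600 and 8824 to 8969. Sftpc changed by -3.45 and -1.22 (-2.22 ± 0.112, adjusted p = 9.51e-11, and -2.41 without WT vehicle replicate 2). Igha lay at 3.27 ± 0.265, adjusted p = 2.22e-05, and 2.88 without WT vehicle replicate 2, and Jchain at 2.38 ± 0.286, adjusted p = 0.000254, and 1.98 without WT vehicle replicate 2, with changes in WT of -4.13 and -3.50. Of 12 immunoglobulin constant regions, 3 were called above 0 and 2 below (3 and 4 without WT vehicle replicate 2). Of 196 immunoglobulin V, D and J segments, 83 were called above 0 and 7 below, and without WT vehicle replicate 2 the numbers were 83 and 53. The part of these differences in cell make-up in the matrix interactions was not tested.

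Cell cycle genes were called higher in 28 of 39 in WT and 30 here, with 10 interactions above 0 and 1 below (9 and 1 without WT vehicle replicate 2). Mki67 changed by 2.38 and 2.26, an interaction of 0.13 ± 0.17, adjusted p = 0.591, and -0.01 without WT vehicle replicate 2. Glycolysis and pericyte genes gave no interaction call with all 12 libraries (1 of 10 pericyte genes without WT vehicle replicate 2), and Dbp changed by -2.99 and -2.81 (-0.18 ± 0.225, adjusted p = 0.562, and -0.28 without WT vehicle replicate 2). Trem2 changed by 4.23 and 4.33 (-0.10 ± 0.342, adjusted p = 0.849, and 0.16 without WT vehicle replicate 2), Gsn by -3.35 and -2.996 (-0.35 ± 0.0834, adjusted p = 0.00277, and -0.50 without WT vehicle replicate 2) and C3 by -2.48 and -2.13 (-0.35 ± 0.334, adjusted p = 0.46, and -0.83 without WT vehicle replicate 2), none of them called. A missing call does not show that the changes were equal.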

How the data were processed

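RNA of flow-sorted CD140a+ lung cells was amplified with SMART-Seq v4, made into libraries with a transposase kit and sequenced by the authors, who aligned reads to GRCm38 (mm10) with HISAT2. Raw counts per gene and values normalized by size factors were deposited by the authors. The counting program and its strand setting are not given in the sources used here, so overlapping genes and near-identical copies may share reads. Symbols came from the deposited table (the identifier with the larger total where a symbol was repeated) and coordinates from GENCODE M21, which held 40394 of 40760 identifiers.

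Groups followed the labels. Counts of the 12 libraries were filtered with filterByExpr, scaled by TMM and tested with edgeR 4.0.16 (R 4.3.3), quasi-likelihood with robust dispersion, 1 mean per group, two-sided, Benjamini-Hochberg over all genes tested. Errors after ± are standard errors of log2 fold changes. DESeq2 1.42.0 and limma 3.58.1 (pseudocount 1 on the normalized signal values the authors deposited) served as alternatives, beside other filters, single libraries left out and a replicate block. The method was tested on simulated data. Promoter sequences came from RefSeq.

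Gene lists and named genes were chosen with earlier results of these data known. Named were the 10 largest rises and 10 largest falls among called genes that averaged 5 or more in log2 CPM and had separate groups (immunoglobulin segments, predicted genes and pseudogenes left out), preset list members, the called member of each list with the largest rise and fall, and the 5 largest interactions in each direction. Some genes are not reported here. Lists are described by counts and medians, with no set test.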

Additional observations from a re-analysis of the deposited data

Results flagged for a closer look

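The change with bleo differed between the labels for 62 of the 168 genes named by rule, by the edgeR interaction term at a fold above 2 and an adjusted p under 0.05. Of all genes tested, 8.53% were called above 0 and 6.98% below 0. Some genes were named for their large interactions and others for a large change labelled Pear1-/-, which is part of the interaction. The larger share among the named genes is therefore in part built into their choice. All values are log2 differences, the change in the libraries labelled Pear1-/- minus the change in WT. 33 lay above 0 and 29 below, and 60 were also called without WT vehicle replicate 2, Ccnb2 (0.95 without it) and Ddit4 (0.74) being the exceptions. Further named genes, Dcn, Cd79a and Ighg1 among them, were called only without that library, so the numbers 33 and 29 hold for all 12 libraries. Over all genes averaging 5 or more in log2 CPM, 221 were called above 0 and 557 below without it, against 236 and 320 with it.

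Above 0, fibrillar collagens were Col11a1 at 3.59, Col5a3 at 2.24, Col1a1 at 1.77 and Col3a1 at 1.18. Among activated fibroblast genes Cthrc1 stood at 2.34, Tnc at 2.22, Grem1 at 1.43 and Postn at 1.20. Collagen-modifying enzymes were Lox at 1.95, P4ha3 at 1.91, Plod2 at 1.21 and Loxl4 at 1.02. Other matrix genes were Bmper at 2.26, Fmod at 1.999, Timp1 at 1.77, Eln at 1.72 and Fn1 at 1.72, with Spp1 at 1.78 and Nrep at 1.88. The contractile genes Des and Acta2 stood at 1.86 and 1.53, and Inhba at 2.22. The alveolar fibroblast genes Npnt and Itga8 had 1.59 and 1.02, and Cxcl14 1.02. Itga8, Cxcl14 and Loxl4 lie at the threshold: the call of Cxcl14 was lost without any 1 of the 11 libraries other than WT vehicle replicate 2 (0.917 to 0.99), that of Itga8 in 11 of 21 alternatives and that of Loxl4 in 8 of 20. Igha had 3.27 and Jchain 2.38. Single members of further lists were Siglec1 (2.15), Hba-a1 (2.20), Msln (1.58), Nr1d1 (1.398), Ddit4 (1.25) and Ccnb2 (1.10). The call of Siglec1 was lost by limma-voom (1.82) and without WT vehicle replicate 1 (1.997), vehicle replicate 2 (2.09) or vehicle replicate 3 (1.80) labelled Pear1-/-, and that of Ccnb2 also without WT vehicle replicate 1 (0.98) or vehicle replicate 3 labelled Pear1-/- (0.93).

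Below 0, macrophage and leukocyte genes were Ms4a7 at -2.71, Adgre1 at -1.70, Mmp12 at -1.66, Fcer1g at -1.55, Ptprc at -1.395 and Csf1r at -1.34, with Ear1 at -2.74, Siglecf at -1.19 and Ccl12 at -1.18. The class II genes H2-Aa, Cd74, Ciita and H2-DMb1 had -1.39, -1.33, -1.28 and -1.04, the last not called when genes averaging 5 or more in log2 CPM were tested alone (-0.96). Epithelial and club cell genes were Sftpc at -2.22, Cyp2f2 at -2.16, Sftpa1 at -1.97, Cbr2 at -1.61 and Scgb1a1 at -1.11 (call lost without WT vehicle replicate 3, -0.99), with Perp at -2.04. Cytotoxic genes Nkg7 and Gzma had -1.60 and -1.16. Resting fibroblast and retinoid genes were Adh7 at -1.51, Rbp4 at -1.43 and Pi16 at -1.27. Stress genes were Gdf15 at -1.55 and Hspa1b at -1.45. Lyz1, a lysozyme with a close copy in Lyz2, had 596.6, 576.1 and 545.7 normalized counts after vehicle and 122.5, 99.71 and 107.7 after bleo, against a WT change of 0.19 (interaction -2.57). Ier5, an immediate early response gene, held 706.4, 634.5 and 617.7 and 847.1, 828.6 and 824.5 against 2.85 in WT (-2.49), and Prkcb, a protein kinase C of leukocytes, 248.1, 241.2 and 265.2 and 186.5, 198.6 and 209.7 against 2.19 (-2.53).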

How the results depend on the processing

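The total of 4825 calls was 4828 with DESeq2 size factors, 4774 by DESeq2's Wald test, 4794 by limma-voom and 4823 by limma on the deposited normalized values. Low counts moved it most. Without a filter 8045 genes were called, 6245 of them lower. Testing only genes averaging 5 or more in log2 CPM gave 672 (241 higher, 431 lower), and 549 interaction calls (277 above 0, 272 below). 2 filters were added after the data were seen: genes above 3 counts in each of the 6 libraries gave 3051 calls (1890 lower), and protein-coding genes alone 3746. The 6 libraries labelled Pear1-/- alone gave 4003 calls. Leaving out 1 of them at a time gave 5327 to 5533, 1362 to 1445 higher and 3927 to 4088 lower. Those fits kept 20390 to 20453 genes, so their totals are not over the same genes as the 4825. Without WT vehicle replicate 2, 6679 genes were called, 1549 higher and 5130 lower, from 20405 genes tested in place of 17418. Interaction calls then numbered 4461 (2460 above 0, 2001 below), against 2415 to 2717 when any other library was left out (1297 to 1434 above 0, 1118 to 1295 below). The latter fits tested 17644 to 20453 genes.

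Replicate numbers gave no sign of pairing: same-numbered vehicle and bleo libraries had correlations of -0.0482, -0.175 and -0.179 between their deviations over 5380 genes. Pairs with different numbers had -0.0819 to 0.168. The deviations were taken from means of 3 libraries, which ties these values together, so they cannot show that the samples were unpaired. A replicate block gave 4824 calls (1468 higher, 3356 lower) and 2641 interaction calls. Of the single-gene results, 2722 with an alternative kept direction and side of the threshold, 38 lost the call, 27 gained it and 4 changed sign, none of them called: Ctgf without a filter (0.0076), and Nqo1 without a filter (0.0057), without vehicle replicate 2 (0.16) and without bleo replicate 2 (0.0023), its range with single libraries left out being -0.22 to 0.16. Interaction values lost the call in 42 cases, most often Cxcl14, Itga8, Loxl4 and Siglec1. Of the counts and medians of gene lists under the alternatives, 2077 stayed within a set margin of the main value and 308 moved past it. Depth limits the lower calls of weak genes, 1023 of which rest on at most 3 counts in each bleo library.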

Other observations

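Of 2683 genes tested that are not protein coding, 229 were called higher and 844 lower with a median log2 fold change of -0.51 in the libraries labelled Pear1-/-. Of 14735 protein-coding genes, 1229 were called higher and 2523 lower with a median of 0.01. The sets were not matched for level and their difference was not tested. Bleo libraries held 17092 to 17386 genes above 3 counts and vehicle libraries 19576 to 20792. These values are given as a description, and no cause was tested.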
